A study of Rattus norvegicus with 12 samples.

Results

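The comparison set 3 muscle libraries from male rats whose dams had been kept on restricted protein, a diet with 6% of it, through gestation and lactation, the libraries titled 32, 33 and 35, against 3 from male rats born to control dams, titled 23, 28 and 29. All of these rats were 540 days old. The 6 libraries were chosen by their title numbers, which are above 20, out of 12 RNA-seq libraries in the series, and are called the fast set here. The other 6 libraries, 3 of each diet, are called the slow set. The study took 2 muscles, the slow soleus and the fast extensor digitorum longus, and the labels tie neither to a library, so the set names rest on fibre-type transcripts. The sources used here name no strain, dam or litter. The labels do not say that libraries of a group came from separate animals. Each p-value below therefore sets a difference only against the spread among libraries, and that spread may be technical. In the fit over all 12 libraries it is estimated over both sets.

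Skeletal muscle fibres differ in the contractile protein isoforms, calcium pumps and energy pathways they use. Fast fibres carry fast myosin heavy chains and depend largely on glycolysis, whereas slow fibres carry slow myosin and depend on mitochondrial oxidation. A muscle sample also holds the transcripts of connective tissue, vessels, nerve, fat and blood, and a group of genes called immediate early genes answers contraction, stress or handling within minutes. In bulk tissue, fewer cells of a type and less RNA per cell cannot be told apart.

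Total counts in the fast set ran from 22869995 in control 23 to 31342247 in restriction 35. Control 23 stood apart from the other 5 libraries. It lay at -90.8 on the first principal component of the 6 libraries, which held 36.7% of the variance, against 6.42 to 25.7 for the others. Mitochondrial tRNA took 5.83% of its counts, against 1.62% to 3.29% elsewhere in the fast set, and globin took 0.233% against 0.0428% to 0.1002%. Results are therefore given with all 6 libraries and, where they move, without control 23. The label fits the fibre markers: all 15 fast-fibre genes measured were higher in each fast set library than in each slow set library, beside 8.97% of all genes, and 11 of 13 slow-fibre genes were lower in each, beside 9.77%. The exceptions were Mb, which encodes the oxygen store myoglobin, and Pln, which encodes the calcium pump inhibitor phospholamban. Both overlapped between the sets. For Myh1, the type IIX myosin heavy chain, the fast set held 18510 to 29920 CPM (counts per 1000000 counts of the library, scaled by TMM) and the slow set 16.7 to 307. The slow chain Myh7 measured 702 to 2589 CPM in the fast set and 31170 to 38340 CPM in the slow set.

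With 1 mean per group fitted over all 12 libraries, edgeR called 0 of 14225 genes (0%) for restriction against control in the fast set at an adjusted p under 0.05. An unadjusted p under 0.05 was reached by 1222 genes (8.59%), of which 626 had higher values after restriction (4.4% of genes tested) and 596 lower ones (4.19%). The higher share of these was 51.2%, and 73.9% when scaled by library size alone, which moved the median of all genes up to 0.087. Limma-voom called 0 genes and DESeq2 called 40 of 13931 (0.287%), 20 higher and 20 lower. Without control 23 edgeR called 4 of 14637 genes (0.0273%), all 4 with lower values after restriction, and 1191 genes (8.14%) had an unadjusted p under 0.05. Fitted alone, the 6 libraries gave 0 calls of 13252 genes and 748 (5.64%) at an unadjusted p under 0.05. The groups of 3 did not overlap for 12.7% of genes, 7.01% higher and 5.72% lower. Gene values are given below as measured, and none of the genes named passed edgeR's threshold with all libraries present and genes of low counts filtered out. With no filter on low counts edgeR called 3, Arc, Plk3 and Rd3l. The median log2 fold change over all genes, restriction minus control, was -0.012.

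The genes with the smallest p in the fast set had lower values after restriction, and several are known as early response genes. Arc, an activity-induced gene best known from neurons, measured 12.0, 33.7 and 23.9 CPM in controls 23, 28 and 29 and 5.24, 5.11 and 3.92 CPM in restriction 32, 33 and 35. Every control lay above every restriction library. The log2 fold change was -2.29 ± 0.38 (SE, edgeR adjusted p = 0.21). Without control 23, its lowest control, it was -2.60 and passed (edgeR adjusted p = 0.0172).

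Plk3, a stress-responsive polo-like kinase, also separated the diets, with 5.63, 10.4 and 10.9 CPM in the controls and 2.18, 2.02 and 1.35 CPM after restriction. Its log2 fold change was -2.28 ± 0.38 (SE, edgeR adjusted p = 0.21), and -2.52 without control 23 (edgeR adjusted p = 0.0331). Btg2, an antiproliferative gene induced early after stimulation, measured 58.5, 111 and 95.2 CPM in the controls and 31.1, 39.9 and 42.4 CPM after restriction. The Btg2 groups did not overlap, and the log2 fold change was -1.22 ± 0.23 (SE, edgeR adjusted p = 0.34). Without control 23 it was -1.44 and passed (edgeR adjusted p = 0.0204).

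Apold1, an early response gene of endothelial cells, was the widest of these. Controls 28 and 29 held 75.3 and 105.1 CPM, whereas control 23 held 11.4 CPM, close to the 6.24, 8.54 and 11.2 CPM of the restriction libraries. Its log2 fold change was -2.88 ± 0.60 (SE, edgeR adjusted p = 0.41), and without control 23 it was -3.38 (edgeR adjusted p = 0.0108). Over 14 alternative settings the adjusted p ran from 1.54e-05 to 0.800 for Arc, from 1.74e-05 to 0.800 for Plk3, from 0.00236 to 0.812 for Btg2 and from 0.0108 to 0.874 for Apold1. The endothelial marker list as a whole summed to 453 to 514 CPM in controls and 408 to 501 CPM after restriction, and its part in the Apold1 value was not tested.

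**Figure D1:**
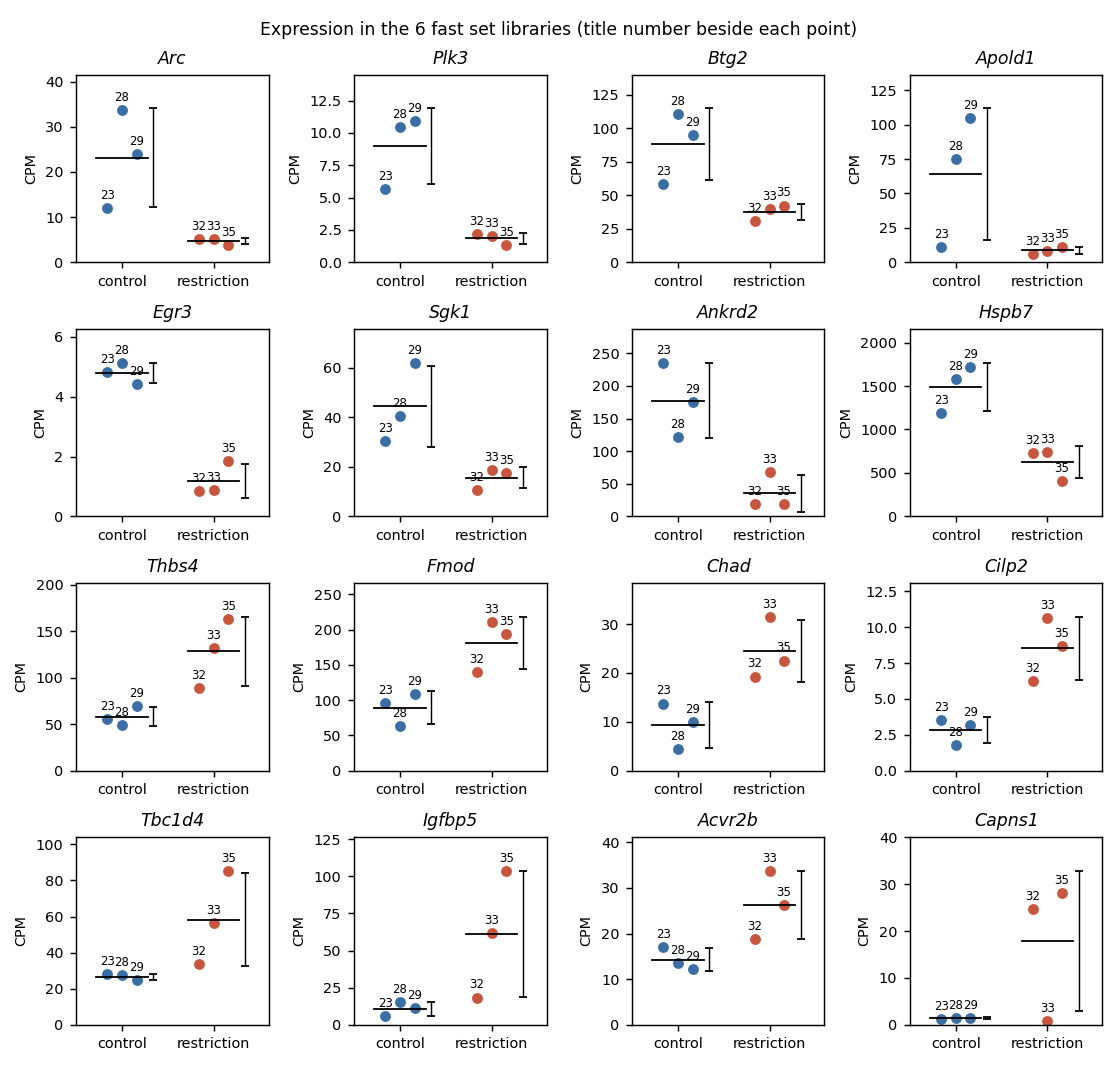
Scaled CPM (vertical axis, linear, from 0) of 16 genes in the 6 fast set libraries, control in blue and restriction in red. Points are single libraries with their title number, the horizontal bar is the mean of 3 and the whisker beside it is the SD. Arc, Plk3 and Btg2 show no overlap between the diets, Apold1 shows control 23 near the restriction libraries, and Capns1 shows restriction 33 with the controls.

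Of 26 immediate early genes, all tested, 25 had values below 0, beside 51.5% of all genes, and the median log2 fold change was -1.001, beside -0.012. An unadjusted p under 0.05 was reached by 12, all lower, beside 4.19% of all genes, and 9 did not overlap between the diets, all lower, beside 5.72%. The range ran from -2.29 for Arc to 0.061 for Fosl1. The summed level of the list was 1086, 2000 and 1993 CPM in controls 23, 28 and 29 and 854, 964 and 1253 CPM in restriction 32, 33 and 35. Control 23 thus lay inside the restriction range, and without it the median was -1.29. In the slow set the same list had a median of -0.48, and 4 of the 26 members had an unadjusted p under 0.05 for the difference between the sets, beside 9.5% of all genes.

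The members were not equally separated. Egr3, a zinc finger transcription factor induced by activity, measured 4.83, 5.12 and 4.44 CPM in controls 23, 28 and 29 and 0.839, 0.891 and 1.85 CPM after restriction, for a log2 fold change (SE) of -2.00 ± 0.47 and an edgeR adjusted p = 0.42. Here control 23 lay between the other controls. Ier2, a nuclear early response protein, was as tight, with 45.0, 44.8 and 40.9 CPM in controls and 20.9, 28.9 and 18.1 CPM after restriction. Dusp1, the phosphatase that shuts off MAP kinases, overlapped: 91.2, 165 and 159 CPM in controls against 35.7, 96.0 and 67.7 CPM. Atf3, a stress-induced repressor, measured 8.48, 17.4 and 15.9 CPM in controls and 1.91, 4.53 and 5.18 CPM after restriction, without overlap. Fos and Jun, the partners of the AP-1 factor, had log2 fold changes of -1.25 ± 0.67 and -0.18 ± 0.26 (SE).

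Since many early genes share promoter elements through which kinase and calcium signals act, 300 bases around their start sites (250 before and 50 after) were searched for 2 such elements. RefSeq promoters of the GRCr8 build matched 18 of the 26 genes by symbol, and Arc and Egr3 were among those without a match. On either strand, the cyclic AMP response element TGACGTCA was found in 5 of the 18 (27.8%), namely Btg2, Ier2, Dusp1, Maff and Jund, beside 1.83% of all 33469 promoters in the table and 2.99% of 10179 promoters of genes tested. The CArG box, which binds serum response factor, was found in 4 (22.2%), beside 1.64% and 1.26%. At least 1 of the 2 elements was found in 9 of the 18. A match describes these letters and is not a measured site. The promoters printed here were picked from the 5 with TGACGTCA. The 3 promoters below, of genes whose values are given above, lie at chr13:48087641-48087940 on the minus strand (Btg2), chr19:40399123-40399422 on the plus strand (Ier2) and chr10:17184603-17184902 on the plus strand (Dusp1), each printed 5′ to 3′ on the gene's strand with the TGACGTCA element in capitals.
Btg2: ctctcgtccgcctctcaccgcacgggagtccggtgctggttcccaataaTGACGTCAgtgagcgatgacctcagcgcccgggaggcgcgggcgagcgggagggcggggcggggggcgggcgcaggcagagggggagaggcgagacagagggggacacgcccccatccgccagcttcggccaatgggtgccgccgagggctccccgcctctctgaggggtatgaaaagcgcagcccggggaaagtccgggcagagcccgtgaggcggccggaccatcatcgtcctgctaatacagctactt
Ier2: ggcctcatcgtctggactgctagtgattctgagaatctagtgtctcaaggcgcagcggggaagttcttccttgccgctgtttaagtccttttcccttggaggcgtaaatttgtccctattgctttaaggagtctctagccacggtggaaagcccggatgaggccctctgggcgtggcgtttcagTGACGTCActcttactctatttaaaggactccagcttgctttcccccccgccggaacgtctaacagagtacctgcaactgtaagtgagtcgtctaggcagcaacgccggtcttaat
Dusp1: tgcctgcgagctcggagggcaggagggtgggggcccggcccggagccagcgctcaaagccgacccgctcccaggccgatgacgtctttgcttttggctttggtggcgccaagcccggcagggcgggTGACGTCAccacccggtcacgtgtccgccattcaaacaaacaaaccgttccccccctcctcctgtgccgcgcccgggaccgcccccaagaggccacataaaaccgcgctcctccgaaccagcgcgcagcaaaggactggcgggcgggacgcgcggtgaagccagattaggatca
The element began 201 bases before the start in Btg2, 66 before it in Ier2 and 124 before it in Dusp1, so its position differed among the 3 genes.

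Other genes with the smallest p among lower values were Rd3l, Snai3, Ptger4 and Myl12a, beside the globins described below. Snai3, a Snail-family zinc finger gene, measured 9.07, 6.76 and 6.27 CPM in controls 23, 28 and 29 and 2.99, 3.33 and 3.26 CPM after restriction, for a log2 fold change (SE) of -1.20 ± 0.22 and an edgeR adjusted p = 0.29. Ptger4, a prostaglandin E2 receptor, measured 9.28, 14.3 and 11.8 CPM against 2.89, 6.17 and 3.51 CPM. Myl12a, a non-sarcomeric myosin regulatory light chain, measured 434, 327.4 and 327.3 CPM against 152, 218 and 218 CPM. Each of these 3 had all controls above all restriction libraries. Rd3l was low in every fast set library, at 1.02, 4.34 and 0.934 CPM in controls and 0.201, 0.240 and 0.314 CPM after restriction. Control 28 set much of its value: the log2 fold change was -3.05 with all libraries and -1.92 without control 28. In slow set controls Rd3l, Snai3 and Myl12a averaged 26.5, 40.9 and 1867 CPM, above their 2.10, 7.36 and 363 CPM in fast set controls. Ptger4 lay the other way, at 5.60 CPM in slow set controls and 11.8 CPM in fast set controls. The part of slow fibres in these values was not tested.

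Ankrd2, a stretch-responsive ankyrin repeat gene of muscle, was picked out after its values were seen. It measured 236, 121 and 175.5 CPM in controls 23, 28 and 29 and 18.8, 68.8 and 18.7 CPM in restriction 32, 33 and 35, and its groups did not overlap. The Ankrd2 log2 fold change was -2.33 ± 0.55 (SE, edgeR adjusted p = 0.42), and -3.24 without restriction 33. Its mean was 5314 CPM in slow set controls, beside 177.5 CPM in fast set controls. Sgk1, a kinase induced by glucocorticoids and serum, measured 30.5, 40.5 and 62.0 CPM in controls and 10.7, 18.8 and 17.4 CPM after restriction, again without overlap, for a log2 fold change (SE) of -1.51 ± 0.34 and an edgeR adjusted p = 0.41. The list of fasting and glucocorticoid response genes to which Sgk1 belongs had 6 of 22 values above 0 and 16 below, beside 51.5% of all genes below 0, with 1 gene at an unadjusted p under 0.05 in each direction and a median of -0.12. Without control 23 the median of that list was -0.47, with 18 of 22 below 0, 1 gene higher and 3 lower at an unadjusted p under 0.05. Foxo3, a transcription factor of the atrophy programme, was the higher one, at 1.07, 11.1 and 5.90 CPM in controls and 14.5, 9.74 and 24.9 CPM after restriction, which overlapped.

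Genes of the tendon and cartilage matrix lay higher after restriction. Thbs4, a matricellular protein of tendon and muscle attachment, measured 55.4, 49.5 and 69.0 CPM in controls 23, 28 and 29 and 89.1, 132 and 163 CPM in restriction 32, 33 and 35. All restriction libraries lay above all controls, for a log2 fold change (SE) of 1.14 ± 0.29 and an edgeR adjusted p = 0.44. Fmod, a collagen-binding proteoglycan, measured 96.2, 62.7 and 109 CPM against 139.9, 211 and 193 CPM, with a log2 fold change of 1.02 ± 0.28. Chad, a cartilage protein that binds collagen and integrins, measured 13.7, 4.42 and 10.04 CPM against 19.3, 31.5 and 22.5 CPM, with a log2 fold change of 1.38 ± 0.40. Fmod and Chad are among 8 genes picked out in the series description, so they were chosen with results of these animals known.

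Cilp2, a cartilage intermediate layer protein, was separated too, at 3.54, 1.82 and 3.20 CPM in controls and 6.28, 10.7 and 8.69 CPM after restriction (log2 fold change 1.59 ± 0.40, SE). Prelp, a proteoglycan of basement membrane anchoring, measured 39.4, 45.5 and 48.6 CPM against 70.0, 59.6 and 97.4 CPM. Comp, a pentameric cartilage protein, measured 6.01, 3.93 and 7.10 CPM against 12.6, 15.97 and 10.01 CPM. None of these 3 overlapped between the diets. Scx and Tnmd, the transcription factor and membrane protein that mark tendon cells themselves, lay near 0 at log2 fold changes of 0.048 and 0.096.

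Of 21 genes on the list 16 passed the filter on low counts, and 15 of the 16 had values above 0, beside 48.5% of all genes, with a median of 0.92. An unadjusted p under 0.05 was reached by 8, all higher, beside 4.4% of all genes, and 7 did not overlap, all higher, beside 7.01%. Aspn was at 0 CPM in 5 of the 6 libraries, and without it 14 of 15 values were above 0 with a median of 0.82. The list summed to 280, 215 and 299 CPM in controls 23, 28 and 29 and to 394, 545 and 574 CPM in restriction 32, 33 and 35. Its median was 0.96 without control 23 and 0.40 in the slow set.

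The general fibrillar and basement membrane list moved less: 20 of 25 values were above 0, beside 48.5% of all genes, with a median of 0.11. No gene had an unadjusted p under 0.05. The groups did not overlap for 2 genes, Postn and Col5a1, both higher, beside 7.01% of all genes. The summed level of this list was 1104 to 1266 CPM in controls and 1179 to 1325 CPM after restriction. Fibro-adipogenic progenitor markers, 5 above and 5 below 0 of 10 tested, summed to 418 to 807 CPM in controls and 556 to 777 CPM after restriction. The groups overlapped in both sums, and the part of these cells in the tendon and cartilage values was not tested.

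**Figure D2:**
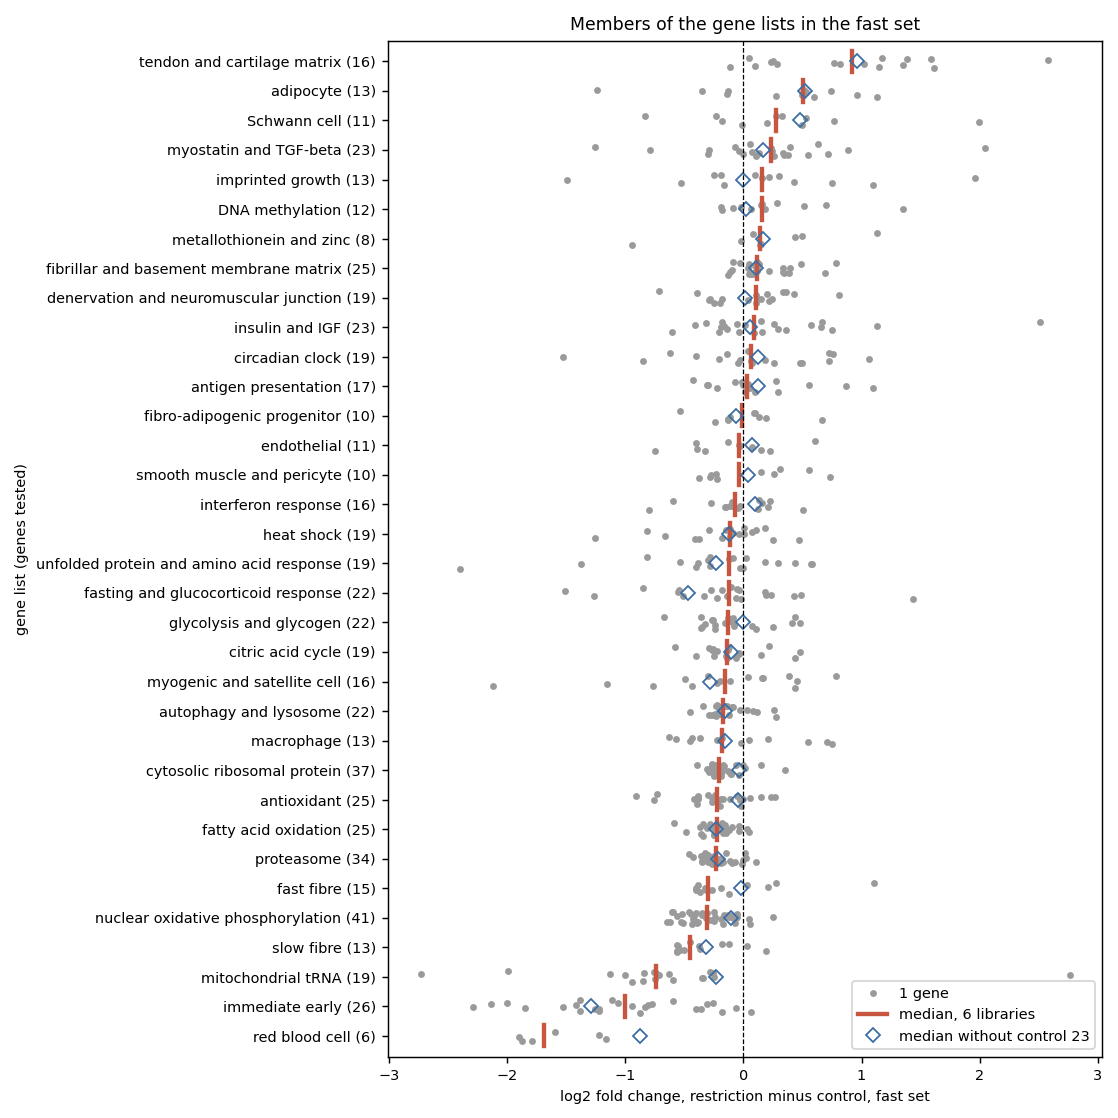
Log2 fold change (horizontal axis, restriction minus control in the fast set) of the members of each gene list (vertical axis, number tested in brackets), 1 grey point per gene. The red bar is the list median with 6 libraries and the open diamond the median without control 23. Tendon and cartilage genes lie furthest right and immediate early and red blood cell genes furthest left, and the red blood cell, mitochondrial tRNA, oxidative phosphorylation and fast-fibre medians shift towards 0 without control 23.

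Red blood cell transcripts were lower after restriction in all 6 members tested (of 11 listed), with a median log2 fold change of -1.69. All 6 had an unadjusted p under 0.05, beside 4.19% of all genes, and 5 did not overlap, beside 5.72%. Hba1, an alpha globin chain, measured 1711, 481 and 604 CPM in controls 23, 28 and 29 and 231, 253 and 324 CPM in restriction 32, 33 and 35. Control 23 was far above the other controls, and without it the Hba1 log2 fold change moved from -1.79 to -1.01. Hbb, a beta globin chain, measured 236, 116 and 137 CPM against 64.4, 86.2 and 67.8 CPM, with a log2 fold change of -1.16 and of -0.79 without control 23. Alas2, the first enzyme of haem synthesis in red cells, measured 11.3, 4.05 and 4.40 CPM against 1.81, 2.81 and 1.88 CPM. Without control 23 the list median was -0.88, and 4 of the 6 had an unadjusted p under 0.05. Globin genes of the same chain type are near-identical copies, so the split among alpha copies, or among beta copies, is uncertain. The summed level of the list, 740 to 2459 CPM in controls and 392 to 515 CPM after restriction, did not overlap, and the amount of blood in each sample was not measured.

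Small heat-shock proteins, which guard muscle structural proteins, had lower values after restriction in 4 genes. Hspb7, a heart and muscle member, measured 1184, 1583 and 1714 CPM in controls 23, 28 and 29 and 732, 738 and 408 CPM in restriction 32, 33 and 35, for a log2 fold change (SE) of -1.25 ± 0.32 and an edgeR adjusted p = 0.44. Like Fmod and Chad, Hspb7 is picked out in the series description, so it was chosen with results of these animals known. Cryab, which protects desmin and other filaments, measured 3435, 2878 and 2434 CPM against 1400, 1836 and 1739 CPM (log2 fold change -0.81 ± 0.24, SE). Hspb6 measured 4541, 3741 and 3781 CPM against 2721, 2898 and 1989 CPM, and Hspb1 868, 1219 and 904 CPM against 820, 771 and 662 CPM. In these 4 genes every control exceeded every restriction library. Of 19 heat-shock genes tested, 12 were below 0 with a median of -0.12, not far from the 51.5% of all genes. An unadjusted p under 0.05 was reached by 3, all lower (4.19% of all genes), and 5 were lower without overlap (5.72%). Hspa8, the constitutive cytosolic chaperone, overlapped, at 260, 554 and 585 CPM in controls and 512, 454.5 and 434 CPM after restriction. In the slow set Hspb7 was at -0.95 ± 0.32 (SE), with the sign it had in the fast set. Cryab was at 0.061 there, and the difference between the sets, -0.87 ± 0.34 (SE), did not pass (edgeR adjusted p = 0.48). Hspb7 and Cryab averaged 8282 and 10160 CPM in slow set controls, above their 1494 and 2916 CPM in fast set controls. The sum of the list was 12870 to 13470 CPM in controls and 8399 to 9738 CPM after restriction. Most of it came from the 4 small heat-shock genes given above, so it does not describe the other members, which were not summed apart.

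**Figure D3:**
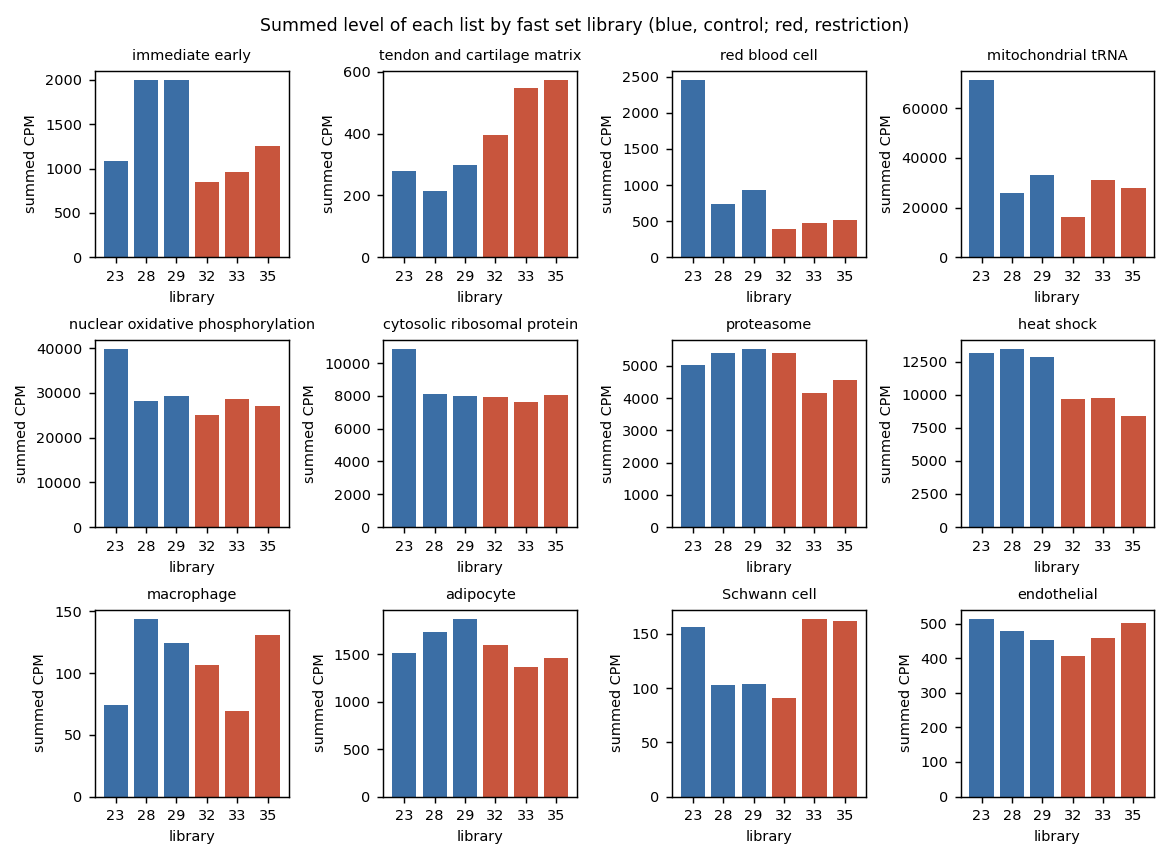
Summed scaled CPM (vertical axis, from 0) of 12 gene lists in each fast set library (horizontal axis, title number), control in blue and restriction in red. Tendon and cartilage sums are higher and heat-shock and red blood cell sums lower in all 3 restriction libraries, control 23 alone is high for mitochondrial tRNA, oxidative phosphorylation and ribosomal protein genes, and the macrophage, adipocyte, Schwann cell and endothelial sums overlap. Most of the heat-shock sum came from Hspb7, Cryab, Hspb6 and Hspb1.

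Genes of insulin and growth factor signalling lay in both directions. Tbc1d4, the Akt substrate that controls glucose transporter movement to the cell surface, measured 27.9, 27.4 and 24.6 CPM in controls 23, 28 and 29 and 33.5, 56.3 and 85.3 CPM in restriction 32, 33 and 35. The controls were tight and the restriction libraries spread, and the log2 fold change was 1.13 ± 0.26 (SE, edgeR adjusted p = 0.41). Igfbp5, an insulin-like growth factor binding protein, measured 5.85, 15.0 and 11.2 CPM against 18.4, 61.6 and 103.5 CPM, for a log2 fold change (SE) of 2.51 ± 0.57 and an edgeR adjusted p = 0.41. Restriction 32 was the lowest restriction library for both genes and still above the controls.

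Mtor, the kinase of the growth pathway, measured 37.1, 56.5 and 51.9 CPM in controls and 62.9, 73.4 and 80.7 CPM after restriction, without overlap (log2 fold change 0.57 ± 0.16, SE). The insulin receptor Insr overlapped, at 7.35, 23.0 and 13.1 CPM against 20.5, 22.2 and 26.0 CPM. The related Tbc1d1 and the glucose transporter Slc2a4 had negative values, at -0.60 ± 0.27 and -0.41 ± 0.18 (SE). Of 23 genes on the list 13 were above 0, near the 48.5% of all genes, with a median of 0.089. At an unadjusted p under 0.05 there were 4 higher and 2 lower (4.4% and 4.19% of all genes), and without overlap 5 higher and 3 lower (7.01% and 5.72%). Igf1, the circulating and local growth factor, was at -0.32 ± 0.32 (SE).

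Among receptors of the myostatin pathway, Acvr2b, which binds myostatin and activins, measured 17.1, 13.6 and 12.2 CPM in controls and 18.8, 33.8 and 26.3 CPM after restriction. It did not overlap, for a log2 fold change (SE) of 0.88 ± 0.22 and an edgeR adjusted p = 0.44. It was the single gene of 23 on the list with an unadjusted p under 0.05, near the 4.4% of all genes that were higher at that level. The list median was 0.23 with 16 values above 0, and 0.17 without control 23. Without that library 2 genes were higher and 3 lower at an unadjusted p under 0.05, beside 8.14% of all genes in either direction. In the myogenic list Myog, the differentiation factor named by the series description, measured 22.6, 33.5 and 24.6 CPM in controls 23, 28 and 29 and 12.1, 15.97 and 19.6 CPM after restriction (log2 fold change -0.76 ± 0.22, SE). Mef2c, a partner of the myogenic factors, lay the other way, at 425, 362 and 386 CPM against 473, 565.5 and 570.1 CPM. Neither overlapped. Pax7, the satellite cell factor, measured 3.00, 4.57 and 2.23 CPM against 4.63, 7.34 and 4.90 CPM. Of 16 myogenic genes 4 were higher and 2 lower at an unadjusted p under 0.05, beside 4.4% and 4.19% of all genes, and the median was -0.16. Without control 23 these counts turned to 2 higher and 4 lower, with a median of -0.28.

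In the circadian clock list 11 of 19 values were above 0, near the 48.5% of all genes, with 5 higher and 2 lower at an unadjusted p under 0.05, beside 4.4% and 4.19%. Without control 23 it had 4 higher and 4 lower. Per3, a repressor of the clock, measured 8.05, 9.02 and 6.64 CPM in controls and 11.01, 17.6 and 20.9 CPM after restriction, without overlap. Arntl, the core activator, measured 28.6, 45.1 and 52.0 CPM against 32.9, 23.7 and 25.1 CPM, which overlapped. In the zinc list, the exporter Slc30a1 measured 1.82, 2.04 and 2.13 CPM in controls and 4.70, 3.94 and 4.55 CPM after restriction, and Mtf1, the zinc-sensing factor that drives it, measured 5.79, 6.495 and 7.07 CPM against 9.63, 8.95 and 8.72 CPM. Both were without overlap and had the opposite sign in the slow set, with differences between the sets of 1.59 ± 0.47 and 1.05 ± 0.31 (SE), neither of which passed (edgeR adjusted p = 0.42 for each). Mt1, a metallothionein that answers to zinc, overlapped at 3.65, 8.24 and 16.4 CPM against 5, 1.99 and 7.78 CPM.

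Few genes of the fast-fibre and slow-fibre lists separated the diets. Of 15 fast-fibre genes none reached an unadjusted p under 0.05 in the fit over 12 libraries, and 11 were below 0 with a median of -0.30. That fit estimates the spread of each gene over both sets, and several of these genes were low and uneven in the slow set. Actn3 ran there from 4.97 to 160.8 CPM and Mybpc2 from 1.56 to 71.5 CPM. Unadjusted p were not counted for this list in the fit of the 6 fast set libraries alone. The list median was -0.018 without control 23, whose summed level of the list, 233400 CPM, was above the 176800 to 212000 CPM of the other libraries. Myh4, the fastest heavy chain, was the 1 gene of the list whose groups did not overlap, near the 7.01% of all genes higher without overlap. It measured 11040, 16040 and 19040 CPM in controls 23, 28 and 29 and 47520, 25650 and 26270 CPM in restriction 32, 33 and 35, with a log2 fold change of 1.11 ± 0.96 (SE) in the fit over 12 libraries. In the fit of the 6 fast set libraries alone it was 1.11 ± 0.28 (SE, edgeR adjusted p = 0.81). In the slow set Myh4 was low and uneven, from 4.97 to 395.5 CPM. The heavy chain genes are similar in sequence, so the assignment of their reads is uncertain.

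Of 13 slow-fibre genes 11 were below 0, with a median of -0.45. The list summed to 15460 to 21260 CPM in controls and 9781 to 14770 CPM after restriction, without overlap. Most of the sum in each library came from Mb, which overlapped between the fast and slow sets. The sum therefore does not describe the other members, which were not summed apart. Restriction 32 was low for most members. Myh7 was at 702 CPM there, beside 2089 and 2589 CPM in the other restriction libraries and 1402, 2447 and 1405 CPM in controls. Without restriction 32 the median was -0.12. Mb was the single slow-fibre gene with an unadjusted p under 0.05, beside 4.19% of all genes that were lower at that level. It measured 16430, 11730 and 11660 CPM in controls and 8052, 9598 and 9268 CPM after restriction (log2 fold change -0.56 ± 0.19, SE, and -0.38 without control 23).

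Nuclear oxidative phosphorylation genes had 38 of 41 values below 0 and a median of -0.31, with 10 at an unadjusted p under 0.05 (4.19% of all genes) and 7 without overlap (5.72%), all lower. The list summed to 39770 CPM in control 23, to 28240 and 29270 CPM in the other controls and to 25110, 28560 and 27130 CPM after restriction. Without control 23 the median was -0.11, with 33 of 41 below 0, and 2 genes were lower and 1 higher at an unadjusted p under 0.05. Cycs, the electron carrier cytochrome c, kept most of its value, at -0.65 with control 23 and -0.53 without it, whereas Cox6a2, a muscle subunit of cytochrome oxidase, went from -0.59 to -0.16. Cytosolic ribosomal protein genes had the same dependence on control 23, with 34 of 37 below 0 at a median of -0.21 and 22 of 37 at a median of -0.037 without control 23. For mitochondrial tRNA the medians were -0.74 and -0.23.

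The medians of fatty acid oxidation and proteasome genes moved little without control 23. Fatty acid oxidation genes had 23 of 25 values below 0 with a median of -0.22, and -0.23 without control 23, and 5 were lower without overlap (5.72% of all genes). None reached an unadjusted p under 0.05 with all libraries, and 4 did without control 23, all lower. Etfa, an electron carrier for the acyl-CoA dehydrogenases, measured 225, 199 and 254 CPM in controls and 158, 184 and 184 CPM after restriction. Proteasome genes had 31 of 34 values below 0 with a median of -0.24, and 33 of 34 with a median of -0.22 without control 23. Psmb1, a subunit of the catalytic core, measured 174, 169.9 and 162 CPM in controls and 145.5, 134 and 126 CPM after restriction. Of the proteasome genes 5 had an unadjusted p under 0.05 (4.19% of all genes) and 9 did not overlap (5.72%), all lower, and restriction 32 summed to 5391 CPM, inside the control range of 5038 to 5520 CPM. The glycolysis and glycogen list did depend on control 23, with 6 of 22 values above 0 at a median of -0.13 and 11 of 22 at a median of -0.0060 without it. Its member Phkg1, a phosphorylase kinase subunit, was at 0.48 ± 0.20 (SE), without overlap. Citric acid cycle genes had a median of -0.14.

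Among the metabolic genes picked out in the series description, Sdha, a succinate dehydrogenase subunit, was at 0.046 ± 0.15, Cs, citrate synthase, at 0.15 ± 0.23 and Ldha, the lactate dehydrogenase of glycolytic fibres, at -0.081 ± 0.20 (SE). Their groups overlapped. The values crossed 0 when single libraries were left out, at -0.11 for Cs without control 23, and Ldha was at 0.097 without that library and at 0.040 when scaled by library size alone.

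Markers of most other cells overlapped between the diets in their sums. Macrophage genes summed to 74.5 to 144 CPM in controls and 69.3 to 131 CPM after restriction, adipocyte genes to 1515 to 1875 and 1368 to 1597 CPM although the median log2 fold change of the 13 was 0.50, and Schwann cell genes to 103 to 157 and 91.2 to 164 CPM. Of the 13 adipocyte genes 9 were above 0, beside 48.5% of all genes. At an unadjusted p under 0.05 there were 2 higher and 1 lower (4.4% and 4.19% of all genes). In the slow set 0 of the 13 were above 0, with a median of -0.69. Of 10 lymphocyte markers 4 passed the filter on low counts, and of 8 neutrophil markers 4. No list for cells other than muscle fibres had sums without overlap apart from the red blood cell and the tendon and cartilage lists, and the part of cell composition in the gene values above was not tested.

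Among genes with the smallest p and higher values after restriction, Pml, the organiser of nuclear bodies, measured 5.31, 5.23 and 5.80 CPM in controls and 10.9, 9.05 and 12.1 CPM after restriction, for a log2 fold change (SE) of 0.97 ± 0.21 and an edgeR adjusted p = 0.41. Spock2, a matrix proteoglycan, measured 6.92, 6.83 and 7.10 CPM against 16.6, 10.1 and 14.7 CPM. Zyg11b, a substrate receptor of a ubiquitin ligase, measured 20.4, 41.5 and 39.5 CPM against 59.3, 74.9 and 65.2 CPM. Khnyn, Ccdc88c, Pdzd3, Hist1h2bh and Mtdh completed this group, with log2 fold changes from 0.74 for Hist1h2bh to 1.52 for Pdzd3 and no overlap. Ryr1, the calcium release channel of muscle, was picked out after its values were seen among the 40 DESeq2 calls. Its levels were 2370, 2701 and 2443 CPM in controls and 3605, 3599 and 3565 CPM after restriction, and its log2 fold change was 0.52 ± 0.14 (SE).

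Capns1, the small regulatory subunit of calpain proteases, split the restriction group. It measured 1.18, 1.52 and 1.43 CPM in controls, 24.8 and 28.2 CPM in restriction 32 and 35, and 0.754 CPM in restriction 33. With all libraries the log2 fold change was 3.69 ± 0.81 (SE, edgeR adjusted p = 0.41), and without restriction 33 it was 4.25 (edgeR adjusted p = 1.54e-05). Over 14 alternatives the adjusted p ran up to 0.874. The other restriction group, in the slow set, averaged 1.06 CPM and the slow set controls 4.05 CPM.

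The difference between the sets in the restriction effect was tested in the same fit, and edgeR called 0 genes, with 1351 at an unadjusted p under 0.05 (9.5%), while DESeq2 called 30 of 14207 (0.211%) and limma-voom 0. The smallest p belonged to Trnn, the row of mitochondrial asparagine tRNA, whose fast set values overlapped at 1.88, 1.37 and 2.401 CPM in controls and 1.48, 1.17 and 1.79 CPM after restriction. Its fast set log2 fold change was -0.35 ± 0.34 and its slow set one -3.74 ± 0.37, a difference of 3.39 ± 0.49 (SE, edgeR adjusted p = 0.098). Gfod1, an oxidoreductase-domain gene, had values of opposite sign, at 0.52 ± 0.14 in the fast set and -0.69 ± 0.14 in the slow set (difference 1.21 ± 0.20, SE, edgeR adjusted p = 0.21). Capns1, Lrrfip1 and Rab12 followed on the positive side and Rd3l, Rasl2-9, Sh3rf2, Palmd and Cenpm on the negative side, each at an edgeR adjusted p = 0.42.

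Rab12, a membrane traffic GTPase, measured 14.8, 39.2 and 28.6 CPM in fast set controls and 43.4, 47.5 and 45.6 CPM after restriction. Rasl2-9 was uneven in its own controls, at 31.2, 12.6 and 1.10 CPM in 23, 28 and 29, and its fast set log2 fold change went from -3.91 to -2.79 without control 23. For Arc, Plk3 and Btg2 the differences between the sets were -1.51 ± 0.52, -2.03 ± 0.52 and -0.76 ± 0.32 (SE), and for Fmod, Chad and Hspb7 0.080 ± 0.39, 0.30 ± 0.55 and -0.30 ± 0.45. None of these passed in edgeR. Rab12 and Rasl2-9 were among the 30 genes that DESeq2 called for the difference, as were Trnn, Gfod1, Capns1, Lrrfip1, Rd3l, Sh3rf2, Palmd and Cenpm. Arc, Plk3, Btg2, Fmod, Chad and Hspb7 were not among them.

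**Figure D4:**
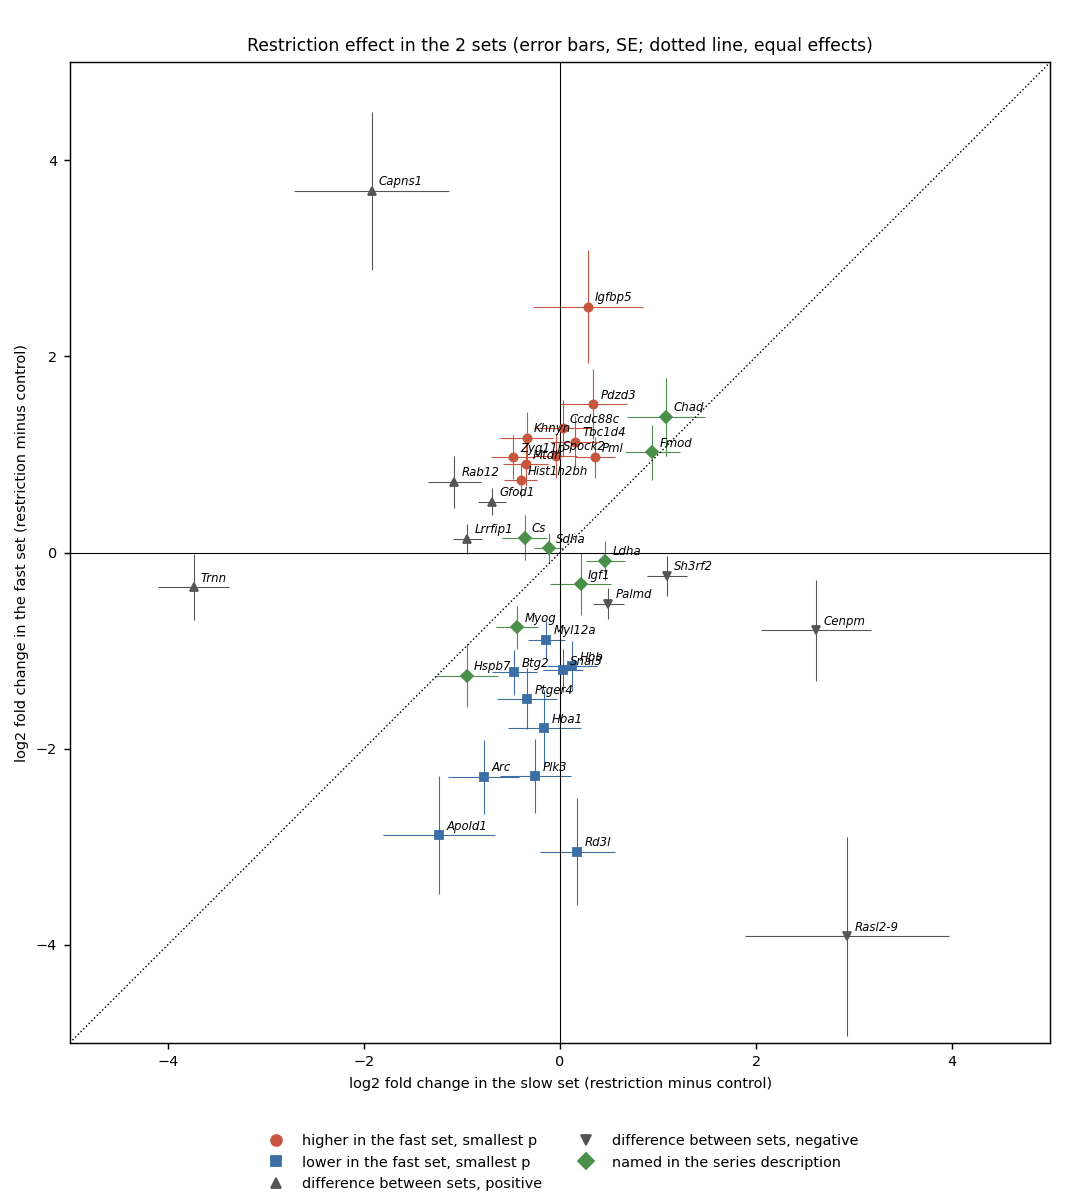
Log2 fold change of restriction against control in the slow set (horizontal axis) and in the fast set (vertical axis) for the genes named by smallest p, by the difference between the sets and by the series description. Bars are SE and the dotted line marks equal values. Fmod, Chad and Hspb7 lie near the line, Arc, Plk3, Rd3l and Igfbp5 lie near the vertical axis or far below or above the line, and Rasl2-9 and Capns1 lie furthest from it.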

How the data were processed

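Per the labels' protocols, Trizol was used for RNA and an unstranded TruSeq RNA kit for libraries, so reads of a gene and an antisense partner cannot be told apart. The submitters' processing notes name Trimmomatic, HISAT2, featureCounts, DESeq2 and the build Rnor_6.0, with versions, order and annotation not given in the sources used here. Raw counts were deposited for 24648 rows, with 144 names on several rows, kept separate. A second deposited table of values normalized by the authors differed from the counts by 1 factor per library and was left out. Promoters came from RefSeq (GRCr8) by symbol.

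Counts were filtered with filterByExpr over the 4 groups of 3 libraries (14225 genes), scaled by TMM and fitted in edgeR 4.0.16 (R 4.3.3) with 1 mean per group, quasi-likelihood tests, Benjamini-Hochberg adjustment over all genes and a threshold of 0.05. No 2 libraries of a fast set group agreed within sampling noise (chi-square per degree of freedom 26.9 to 147). On simulated counts of 13971 genes, the fast set fit recovered 38% of 100 genes changed 2-fold and 88% of 100 changed 4-fold, and the fit of the difference 7% and 58%. Alternatives were DESeq2 1.42.0, limma-voom (limma 3.58.1), other scalings and filters, the 6 fast set libraries alone, a replicate block and leaving out each library.

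The members and the gene lists were chosen with earlier results of these data known, so lists are described by counts and medians and not tested. Genes were named if called with a library left out, if among the 10 smallest p in each direction (mean CPM of at least 1, 1 row, no overlap between the diets), if among up to 4 of smallest p in a list, if among 5 in each direction for the difference between the sets, or if among the 8 of the series description. List members given beyond these, with Ankrd2 and Ryr1, were chosen after their values were seen.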

Additional observations from a re-analysis of the deposited data

How the results depend on the processing

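For restriction against control in the fast set, where edgeR called 0 genes, DESeq2 called 40 and the fit with no filter on low counts 3 (Arc, Plk3 and Rd3l); leaving out 1 library gave 0 to 4. For the difference between the sets, DESeq2 called 30 and no filter 1 (Trnn); leaving out 1 library gave 0 to 1, the 1 being Capns1 without restriction 33. Limma-voom, DESeq2 size factors, library size alone, a mean CPM of at least 1 and, for the diet comparison, the 6 fast set libraries alone (748 genes at an unadjusted p under 0.05) called 0. Scaled by library size alone the median of all genes moved from -0.0117 to 0.0873, and the share of higher values among genes at an unadjusted p under 0.05 from 51.2% to 73.9%. Of the genes tried, 3 changed sign: Sdha without control 23 (-0.022) and without restriction 33 (-0.052; range with 1 library left out -0.052 to 0.14), Ldha with library size alone (0.040), without control 23 (0.097) and without restriction 35 (0.066; range -0.19 to 0.097), and Cs without control 23 (-0.11; range -0.11 to 0.36); the cause was not tested. With 3 libraries per group, the fit missed most simulated 2-fold changes, and smaller changes, which were not simulated, may be missed as well.

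Within the fast set the diets share no title number, so no paired fit of the diets was possible. Fast and slow set numbers lie 20 apart. Their libraries' deviations from the group means correlated at 0.0791 to 0.175, over 0.1 in 4 of 6 pairs. In 6 of 6 pairs the fast set library correlated best with its own number, a hint from the data and not the design. No pair known to share an animal was there to compare, so these correlations cannot decide the pairing. The labels do not say whether libraries with numbers 20 apart came from the same animal. With a replicate block on these numbers limma-voom (consensus correlation 0.133) called 0 genes in the fast set, with 1166 at an unadjusted p under 0.05, and edgeR 0 for the difference, with 1586.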
